A study of Mus musculus with 4 samples.

Results

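Histone acetyltransferases transfer acetyl groups to the tails of histones, and the genes of 9 of these enzymes or coactivators were examined together with Epc2 for sites bound by IGF2BP3 in the mouse testis. They were chosen by name, with earlier results of these data known. A cluster of reads was assigned to a gene when its centre lay inside the gene span of GENCODE M21 (mm10) on the same strand. The 10 genes are among 12312 protein-coding genes with at least 1 cluster in both replicates. IGF2BP3 is an RNA-binding protein, and its bound RNA was recovered by crosslinking and immunoprecipitation followed by sequencing (eCLIP-seq). Each of 2 replicates had 1 library precipitated with an antibody to IGF2BP3 (IP) and 1 size-matched input library (SMInput), made without an antibody. All 4 libraries came from whole testes, holding germ cells and somatic cells, of wild-type C57BL/6 mice at 8 weeks of age.

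Acetylation of histone tails loosens the contact between histones and DNA and creates docking sites for proteins that read it. In elongating spermatids, histones become hyperacetylated before they are replaced by transition proteins and then protamines. The enzymes work in large complexes: Kat2a and Kat2b in the SAGA and ATAC complexes, Kat5 in NuA4/TIP60 together with Epc2 or its homolog Epc1, Kat6a, Kat6b and Kat7 with scaffold proteins of the BRPF or JADE families, and Kat8 in the MSL and NSL complexes. Ep300 and Crebbp encode a pair of closely related coactivators that many transcription factors recruit.

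For each cluster the deposited log2(fold change) compares IP with SMInput reads, each scaled to its library, and the deposited −log10(P value) comes from the authors' test of these reads. A cluster is called here when both values were at least 2. The read numbers and library totals that return these values came to 5133438 IP and 8706391 SMInput reads in replicate 1, and to 4637612 and 16696122 in replicate 2. With a single SMInput read, at least 7 IP reads were needed for a call in replicate 1 and 4 in replicate 2, where the SMInput library was deeper. No cluster had fewer than 1 recovered SMInput read, and whether a 1 stands for 0 reads was not tested. The 95% intervals given below are exact Clopper-Pearson intervals of the IP share, rescaled by the totals, and cover counting error only. Each test compares the 2 libraries of a replicate.

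The 10 genes held 522 clusters in replicate 1, of which 28 were called, and 363 in replicate 2, of which 47 were called. These shares, 5.36% (95% Wilson interval 3.74% to 7.64%) and 12.9% (9.88% to 16.8%), lie close to the 4.92% and 13.2% of all clusters called in the same replicates. A called cluster was present in both replicates in 7 of the 10 genes, against 39.1% of the protein-coding genes with a cluster in both tables. The 10 genes are also rich in clusters, with a median of 47 and 40 per gene in replicates 1 and 2 beside 15 and 10 over those protein-coding genes. When called clusters had to overlap between the replicates by at least 1 base, only Kat7 and Kat6a were left of the 10, against 16.6% of the protein-coding genes.

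**Figure D1:**
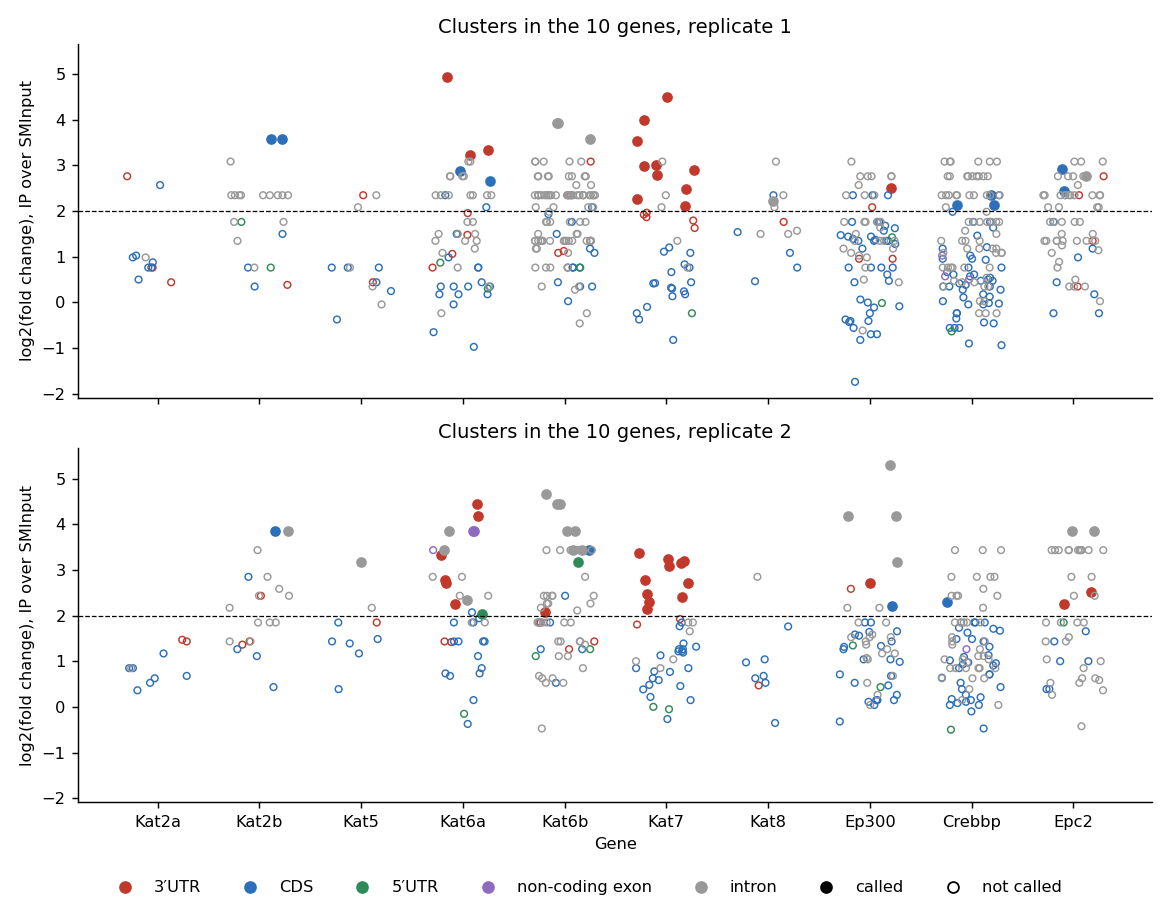
Each point is 1 cluster, placed by gene (x axis, spread sideways for legibility) and deposited log2(fold change) of IP over SMInput (y axis), in replicate 1 above and replicate 2 below; colour gives the transcript region and filled points are called. The dashed line marks a log2(fold change) of 2. In Kat7 all 10 and 11 called clusters lie in the 3′UTR.

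By region, 14 of 44 clusters in 3′UTRs were called in replicate 1 (31.8%, interval 20% to 46.6%) and 21 of 36 in replicate 2 (58.3%, 42.2% to 72.9%). Over all genes the shares in 3′UTRs were 19.4% and 34.5%. The Wilson intervals here and above treat each cluster as a separate draw. Of the 3′UTR calls, 10 and 11 were in Kat7, where several clusters touch, so no difference from all genes is read from the intervals. Without Kat7, the genes had 4 of 29 and 10 of 23 called in 3′UTRs, and without Kat7 and Kat6a 1 of 21 (4.76%) and 4 of 15 (26.7%). In coding sequence (CDS), 9 of 173 and 4 of 136 clusters were called, beside 5.28% and 7.96% over all genes. Introns held 293 and 176 clusters with 5 and 18 calls, against 1.94% and 10.8% of all intronic clusters. The rise in intronic calls in replicate 2 was thus also present over all genes.

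Of the 14 called clusters of replicate 1 in 3′UTRs, 12 overlapped a called cluster of replicate 2, and 10 of these were in Kat7. Of the 21 called in 3′UTRs in replicate 2, 11 overlapped a call of replicate 1. The 3′UTR calls of replicate 1 had a median of 45.5 IP reads, or 11.5 without Kat7, against 13 in CDS and 9 in introns, and the part of read number was not tested. None of the 9 calls of replicate 1 in CDS and none of its 5 in introns overlapped a call of replicate 2. Of the 18 intronic calls of replicate 2, 12 rested on 1 SMInput read, 17 had fewer than 10 IP reads, and at none of the 18 was there any cluster in replicate 1. Of all called clusters of replicate 2 with recovered reads, in any region, 25.9% rested on 1 SMInput read. The matching shares of all intronic calls are not given. Over the whole tables, 33.0% of called clusters in replicate 1 and 18.5% in replicate 2 overlapped a called cluster of the other. For the 10 genes this was 12 of 28 and 11 of 47, and without Kat7 it was 2 of 18 and 2 of 36. These shares pool all regions. Overlap by region over all genes is not given, so no trait of the 10 genes is read from the split by region.

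Kat7, also called HBO1, is a MYST-family acetyltransferase that acts with the JADE and BRPF scaffold proteins. The gene lies on the minus strand at chr11:95274259-95310246, and its 15th and last exon holds a 3′UTR of 1527 bases (chr11:95274259-95275785). Called clusters numbered 10 of 39 in replicate 1 and 11 of 43 in replicate 2, and all lay in this 3′UTR. None of the 18 and 22 clusters in its CDS was called, beside 5.28% and 7.96% of CDS clusters over all genes. Their median log2(fold change) was 0.37 and 0.85, against 2.48 and 2.70 in the 3′UTR of Kat7. Over all genes the medians were 0.76 and 0.93 in CDS and 1.76 and 1.85 in 3′UTRs, the same direction. In replicate 1 the lowest Kat7 value in the 3′UTR, 1.63, was above its highest in the CDS, 1.20. In replicate 2 these values were 1.80 and 1.85, so that the ranges overlapped slightly. The 5 and 6 intronic clusters of Kat7, none of them called, had a median of 2.08 and 1.35. The largest intronic value, 3.08 in replicate 1, lay inside the range of the 3′UTR.

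All 10 called clusters of Kat7 in replicate 1 overlapped a called cluster of replicate 2, and 9 of the 11 in replicate 2 overlapped one of replicate 1. Of the 12312 protein-coding genes, 73 (0.593%) had at least 10 such clusters. Several Kat7 clusters touch each other, so they cannot be counted as separate binding sites, and joining neighbours left 6 and 7 stretches. Called clusters covered 34.0% of the 3′UTR in replicate 1 and 48.1% in replicate 2, with 29.3% covered in both.

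The strongest stretch was centred 1081 to 1137 bases after the stop codon in replicate 1. In replicate 1 the cluster at chr11:95274684-95274726 had the largest log2(fold change), 4.51 (95% interval 3.21 to 6.18), from 67 IP and 5 SMInput reads. It overlapped the cluster at chr11:95274691-95274733 of replicate 2, at 3.15 (2.31 to 4.06) from 42 and 17 reads. Next to it, chr11:95274615-95274683 reached 3.98 (2.99 to 5.16) from 84 and 9 reads in replicate 1, with the smallest P value of the gene in that replicate (−log10 of 25.2). Its partner of replicate 2, chr11:95274620-95274690, was at 3.24 (2.59 to 3.94) from 71 and 27 reads. The intervals of the replicates overlap in both pairs.

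Nearer to the stop codon, the cluster at chr11:95274881-95274990 was at 2.26 (1.63 to 2.93) from 82 and 29 reads in replicate 1. The cluster of replicate 2 that spans most of it, chr11:95274837-95274989, was at 3.08 (2.57 to 3.61) from 108 and 46 reads and had the smallest P value of the 10 genes (−log10 of 46.7). Of the called clusters, those nearest to the stop codon, at chr11:95275536-95275613 and chr11:95275540-95275610, had almost the same value, 2.78 and 2.70. Their read numbers were 65 IP and 16 SMInput in replicate 1 and 38 and 21 in replicate 2. A site in between, at chr11:95275429-95275472 and chr11:95275408-95275454, was just past the threshold at 2.10 and 2.15.

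The remaining called pairs of Kat7 fell between these values. The clusters at chr11:95274727-95274760 and chr11:95274734-95274803 were at 3.54 in replicate 1 and 2.78 in replicate 2. Those at chr11:95274574-95274614 and chr11:95274509-95274610, closest to the end of the transcript, were at 2.98 and 2.47. Those at chr11:95275207-95275248 and chr11:95275149-95275218 were at 3.0 and 2.41. In the other 5 pairs, clusters already named met each other or chr11:95274761-95274805 (2.91), chr11:95274831-95274843 (2.48) in replicate 1 or chr11:95274990-95275034 (2.29) in replicate 2. The called cluster with the largest value in replicate 2, chr11:95274416-95274433, was at 3.36 (2.06 to 4.85) from 20 and 7 reads and had no cluster at its place in replicate 1. The other call of replicate 2 without a called partner, chr11:95274464-95274508, was at 3.20 (2.43 to 4.02) from 51 and 20 reads, where replicate 1 had an uncalled cluster at 1.63 (0.73 to 2.57). Over all 44 overlapping pairs of Kat7 clusters, called or not, Pearson's r between the replicates' log2(fold change) was 0.88, beside 0.65 over 93525 pairs of all genes. Over the 104 pairs of the 10 genes without Kat7 it was 0.57. These pairs share libraries and partly share clusters, and r is given as a description. Kat7 clusters with recovered reads had a median of 21.5 and 17 IP reads in replicates 1 and 2. In the other genes of the 10 the medians were 3 to 6 and 3 to 5. The part of read number in r was not tested.

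**Figure D2:**
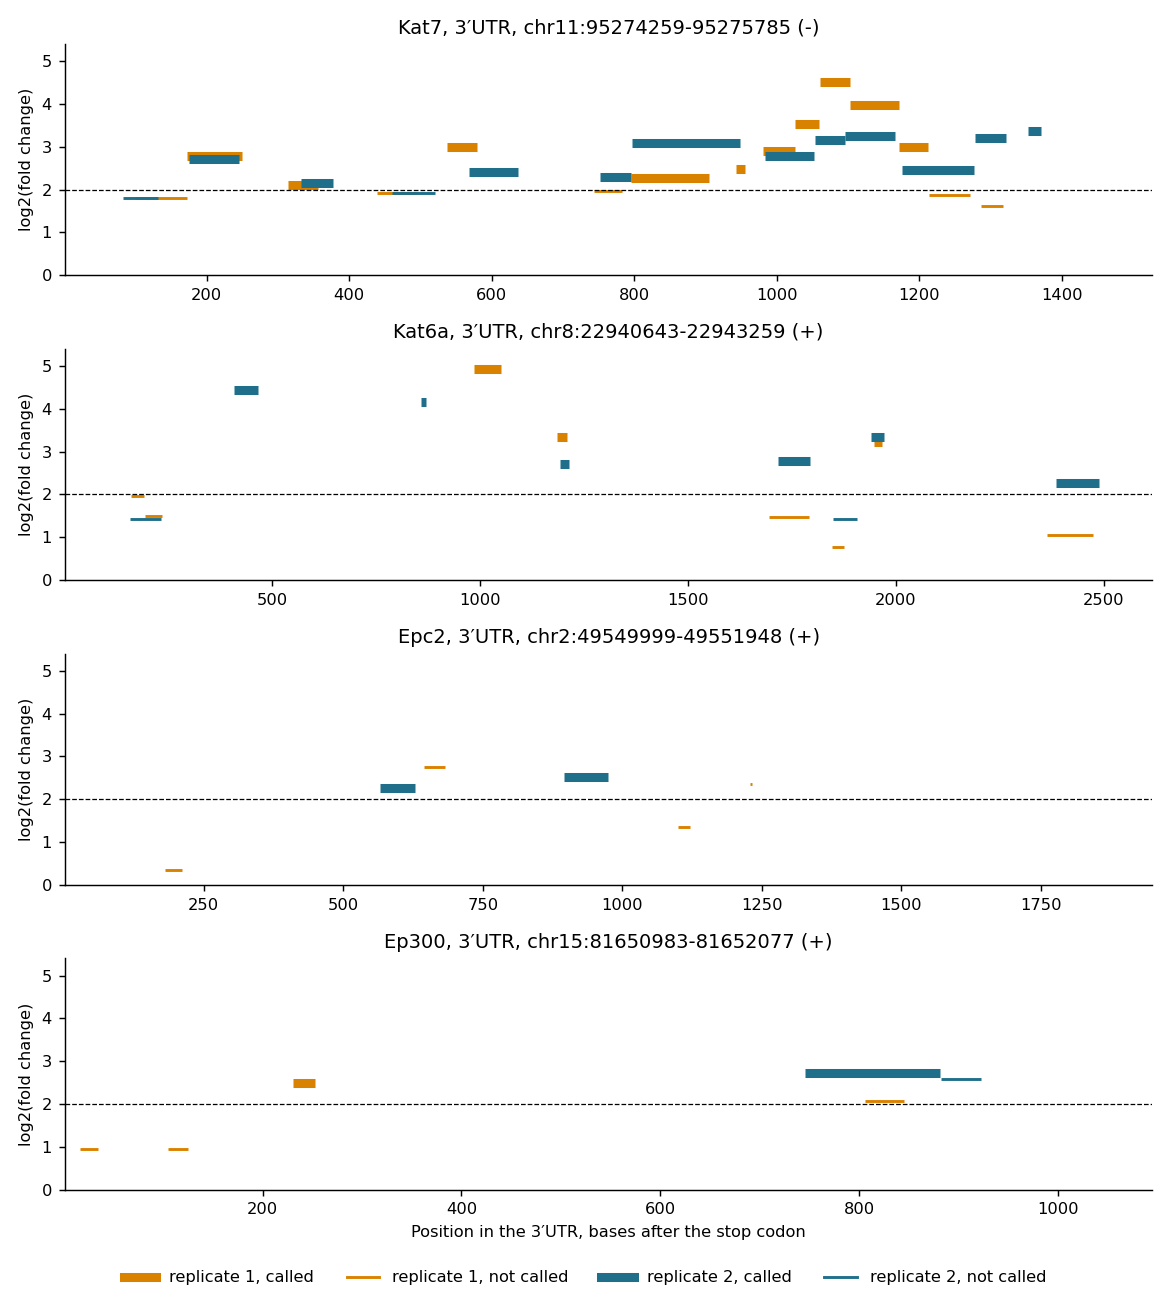
Clusters in the 3′UTRs of Kat7, Kat6a, Epc2 and Ep300, drawn as bars at their position in bases after the stop codon (x axis) and their deposited log2(fold change) of IP over SMInput (y axis); thick bars are called, and colours give the replicate. Kat7 has called clusters of both replicates along the 3′UTR, Kat6a has 2 places where they coincide, and Epc2 and Ep300 have none.

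The following 30-base stretches are examples from places where both replicates were called. They are centred on the shared part of called pairs of Kat7 and Kat6a, read 5′ to 3′ from GRCm38 on the strand of the gene, with any of 4 short motifs in capitals. These were GGACT, the CA-rich pentamer ACACA, and a further pair of pentamers searched in the same way. Of that pair, 1 was GAACA while the other read AAACC. All but ACACA are forms of the sequence at which m6A is added to mRNA.
Kat7, chr11:95274637-95274666, minus strand: tgttaagtgaaggaagaagtgttccctcta
Kat7, chr11:95274694-95274723, minus strand: attccctttcgGGACTtgccaccatcatcc
Kat6a, chr8:22941829-22941858, plus strand: ttcattttgtcttgagatcctgaattcacc
The Kat7 3′UTR holds 1 GGACT, and it lies inside called clusters of both replicates. Of 2 ACACA there, 1 lies inside called clusters of both, and the 3′UTR holds none of the remaining pair. Further Kat7 stretches of this kind, at chr11:95274673-95274702 and chr11:95274716-95274745, hold none of the 4 motifs and are not printed. The Kat6a stretch reaches past the shared part of its pair, chr8:22941835-22941852.

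Kat6a, or MOZ, and Kat6b, or MORF, are the paralogous MYST-family enzymes of the BRPF complexes. Kat6a (plus strand, chr8:22859535-22943259) had 5 of 55 clusters called in replicate 1 and 12 of 37 in replicate 2, with 3 and 6 of them in its 3′UTR of 2617 bases. The replicates coincided at 2 places there, of which 1 is described. At chr8:22941827-22941852 replicate 1 was at 3.35 (1.18 to 6.55) from 12 IP and 2 SMInput reads, and at chr8:22941835-22941855 replicate 2 was at 2.72 (1.16 to 4.44) from 11 and 6. Called bases shared by both replicates made up 1.45% of the 3′UTR, against 29.3% in Kat7.

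The Kat6a cluster with the largest log2(fold change) in replicate 1, chr8:22941628-22941693, reached 4.93 (2.27 to 10.3) from 18 IP reads and 1 SMInput read. That in replicate 2, chr8:22941050-22941107, reached 4.43 (2.27 to 7.63) from 12 and 2 reads. Neither had a cluster at its place in the other replicate, although both were in the same 3′UTR. At chr8:22942359-22942436 and chr8:22943026-22943130, replicate 2 was called at 2.77 and 2.26, while the overlapping clusters of replicate 1 were at 1.48 and 1.06 and were not called. The intervals overlap at both places, and the difference between replicates was not tested.

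Kat6b (plus strand, chr14:21481434-21672478) had 3 of 110 clusters called in replicate 1, all intronic, and 10 of 59 in replicate 2, 7 of them intronic. The largest values were 3.93 (1.08 to 9.39) in replicate 1, at chr14:21544707-21544794 in intron 2 and at chr14:21619512-21619579 in intron 5, each from 9 IP reads and 1 SMInput read. In replicate 2 the largest was 4.66 (1.69 to 10.1) at chr14:21558517-21558592, in intron 2, from 7 reads and 1. A single call lay in the 3′UTR, at chr14:21671549-21671647 in replicate 2 with 2.07 (0.85 to 3.31) from 14 and 12 reads. No called cluster of Kat6b overlapped between replicates, while a fit with the replicate block passed 3 of its overlapping pairs. These pairs had only 5 to 9 IP reads in replicate 1 and 3 to 14 in replicate 2. The pair at chr14:21505714-21505801 was called in neither replicate alone. The share of all overlapping pairs that pass this fit is not given.

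Epc2, enhancer of polycomb homolog 2, is a non-enzymatic subunit related to the yeast scaffold that anchors the NuA4 catalytic module. It lies on the plus strand at chr2:49451486-49551948, and its called clusters, 3 of 62 in replicate 1 and 4 of 44 in replicate 2, did not overlap between the replicates. In replicate 1 the largest was in exon 6 of 14, chr2:49529991-49530076, at 2.93 (0.66 to 6.18) from 9 IP and 2 SMInput reads. The cluster of replicate 2 at that place was at 0.39 (−1.72 to 2.14) and not called. A CDS cluster in exon 9, chr2:49536576-49536657, was at 2.44 (0.93 to 4.24) from 16 and 5 reads in replicate 1 and 1.0 (−0.28 to 2.19) in replicate 2. The intervals overlap at both places. The remaining call of replicate 1, chr2:49535811-49535864 in intron 8, was at 2.76 (0.44 to 6.04) from 8 and 2 reads.

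In replicate 2, Epc2 was called at 2 places of its 3′UTR of 1950 bases. The cluster at chr2:49550893-49550973, centred 935 bases after the stop codon, was at 2.51 (1.39 to 3.69) from 19 IP and 12 SMInput reads, with a −log10(P value) of 6.52. The other, chr2:49550564-49550627, was at 2.26 (0.55 to 4.07) from 8 and 6 reads. Replicate 1 had 4 clusters in this 3′UTR, none of them called and none at these places. The largest log2(fold change) of replicate 2 was 3.85 (0.51 to 9.47), at both chr2:49453513-49453548 and chr2:49482641-49482668 in intron 1, each from 4 IP reads and 1 SMInput read. The 30 bases at the centre of the 3′UTR cluster with the most reads are given for its position in the transcript.
Epc2, chr2:49550919-49550948, plus strand: ggagggttgtggcgagattgtcttttcaat

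Ep300 and Crebbp had 52 to 120 clusters in a replicate, of which 1.30% and 11.5% were called in Ep300 and 2.5% and 1.25% in Crebbp, beside 4.92% and 13.2% of all clusters. Ep300 (plus strand, chr15:81585351-81652077) had 1 of 77 called in replicate 1, in the 3′UTR at chr15:81651213-81651235, with 2.5 (0.54 to 5.0) from 10 IP and 3 SMInput reads. In replicate 2, 6 of 52 were called, and the largest value of any called cluster of the 10 genes, 5.31 (2.53 to 10.7), was at chr15:81630850-81630990 in intron 17 from 11 reads and 1. Its 3′UTR was called in replicate 2 at another place, chr15:81651728-81651863, with 2.72 (1.16 to 4.44), where replicate 1 had an uncalled cluster at 2.08. This pair, from 5 IP and 2 SMInput reads in replicate 1 and 11 and 6 in replicate 2, passed the fit with the replicate block.

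Crebbp (minus strand, chr16:4081328-4213997) had 3 of 120 clusters called in replicate 1 and 1 of 80 in replicate 2, all in CDS. The largest was 2.35 (0.81 to 4.16) at chr16:4084837-4084916 in replicate 1, from 15 and 5 reads, and 2.31 (0.86 to 3.83) at chr16:4085299-4085348 in replicate 2, from 11 and 8 reads. Both lie in exon 31, the last, which also holds the 3′UTR of 2720 bases. Neither replicate listed any cluster in that 3′UTR.

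Kat2a, Kat2b, Kat5 and Kat8 had 9 to 22 clusters each and between 0 and 2 calls per replicate. Kat2a (minus strand, chr11:100704746-100712465), known as GCN5, was the only one of the 10 genes with no call in either replicate. Its smallest P values, with −log10 of 1.80 and 1.71, belonged to chr11:100710830-100710888 in the CDS in replicate 1 and chr11:100705130-100705201 in the 3′UTR in replicate 2. Their log2(fold change) was 2.57 (0.18 to 5.87) and 1.47 (0.12 to 2.77).

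Kat2b (plus strand, chr17:53566861-53672720), known as PCAF, had 2 calls in each replicate. In replicate 1 they were touching clusters in exon 8, chr17:53644622-53644629 and chr17:53644630-53644656, both at 3.57 (0.61 to 9.06) from 7 IP reads and 1 SMInput read. In replicate 2 they were at chr17:53586272-53586280 in intron 1 and chr17:53654475-53654566 in exon 11, both at 3.85 (0.51 to 9.47) from 4 reads and 1. None coincided between the replicates.

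Kat5 (minus strand, chr19:5603014-5610237), the catalytic subunit of NuA4/TIP60, was called in replicate 2 only, at chr19:5606857-5606874 in intron 9, with 3.17 (0.56 to 6.56) from 5 and 2 reads. Its smallest P value in replicate 1 had a −log10 of 0.960, at chr19:5609541-5609604. Kat8 (plus strand, chr7:127912516-127925837), known as MOF, was called in replicate 1 only, at chr7:127918028-127918080 in intron 3, with 2.22 (0.47 to 4.33) from 11 and 4 reads. In replicate 2 its smallest P value (−log10 of 3.36) was at chr7:127924794-127924941 in the CDS, where the log2(fold change) of 1.76 (0.68 to 2.83) was below the threshold.

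At the threshold itself, the nearest called clusters in replicate 1 were 2.10 in Kat7 and 2.14 in Crebbp, and the nearest uncalled clusters with a sufficient P value were 1.95 in Kat6a and 1.96 in Kat7. In replicate 2 they were 2.04 in Kat6a and 2.07 in Kat6b on the upper side and 1.92 in Kat7 and 1.94 in Kat6a on the lower. Another 153 and 66 clusters of the 10 genes reached the fold change without the P value.

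The same 4 motifs were counted on the strand of the gene in 100 bases around the centre of called clusters. In 3′UTRs, GGACT was present in 3 of 14 windows of the 10 genes in replicate 1 and 2 of 21 in replicate 2, beside 10.4% and 9.78% over all called 3′UTR clusters. The pentamer ACACA was present in 1 and 1 of those windows, beside 11.9% and 10.9%. The last pair was present in none of them, beside 8.30% and 7.72% for GAACA, and 8.71% and 8.47% for the other. In CDS, GAACA was present in 3 of 9 and 2 of 4 windows, beside 10.4% and 10.7% over all called CDS clusters. The CDS windows held GGACT in 0 and 0, beside 10.1% and 9.18%. They held ACACA in 2 and 0, beside 10.6% and 10.02%, and AAACC in 1 and 0, beside 9.61% and 8.44%. The windows are few and some overlap, and a match is a description.

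Among 65 other genes of acetyltransferase complexes or related enzymes, 38 had a called cluster in both replicates (58.5%) and 15 had called clusters that overlapped between them (23.1%), beside 39.1% and 16.6% of the protein-coding genes with a cluster in both tables. Of the 65, 64 had a cluster in both. The median over the 65 was 23 and 15 clusters per gene in replicates 1 and 2, beside 15 and 10 over those protein-coding genes. The 38 fell to 24 with an adjusted p of at most 0.05 and to 21 with at least 10 IP reads. With both thresholds at 3 it fell to 3, and shares of the protein-coding genes under these settings are not given. By complex, the count with calls in both was 8 of 16 for NuA4/TIP60, 3 of 8 for the MOZ/MORF and HBO1 partners, 8 of 11 for MSL and NSL, 10 of 19 for SAGA and ATAC, and 9 of 11 for other acetyltransferases and partners. Overlapping calls were present in 6, 0, 3, 4 and 2 of them.

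The most overlapping calls on that list, 3 called clusters of replicate 1, were in Kansl1, Mbtd1 and Naa40. Kansl1, the scaffold of the NSL complex with Kat8, had its best pair in the 3′UTR at chr11:104334489-104334548, with 3.98 in replicate 1 and 3.34 in replicate 2. Mbtd1, a reader subunit of NuA4/TIP60, was at 2.64 and 2.56 in its best pair, and Naa40, which acetylates the amino terminus of histones, at 2.41 and 4.02. Clock, Dr1 and Supt20 followed with 2 each. Their best pairs were at 2.64 and 2.46 in Clock, 3.35 and 2.36 in Dr1, and 2.07 and 2.75 in Supt20, and all 6 genes had the best pair in the 3′UTR.

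Markers of the cells of the testis were checked by their reads in clusters. The Leydig cell gene Insl3 had the most, with 3155 IP and 2536 SMInput reads in replicate 1 and 2722 and 4061 in replicate 2. The spermatid gene Prm2 followed with 1912 and 1903 reads in replicate 1 and 1710 and 3827 in replicate 2, and no cluster of Prm1, Prm2, Tnp1 or Tnp2 was called. The other spermatid gene, Acrv1, had 5 of 15 clusters called in replicate 1 and 3 of 8 in replicate 2. The other Leydig cell genes, Cyp11a1 and Cyp17a1, had 27 and 79 IP reads in replicate 1, and the Sertoli cell genes Sox9 and Wt1 had 27 and 423. Spermatocyte genes had between 237 (Sycp3) and 1213 (Piwil1) IP reads in replicate 1, and the spermatogonial genes Zbtb16 and Kit had 111 and 113. In replicate 1, 3 of 20 clusters were called in Kit and 1 of 27 in Zbtb16, beside 4.92% of all clusters. No cluster of Wt1, Sycp1, Insl3 or Cyp11a1 was called in that replicate. In replicate 2 the calls were 5 of 20 in Kit, 6 of 21 in Zbtb16, 6 of 65 in Wt1 and 6 of 108 in Sycp1. They were 3 of 14 in Insl3 and 1 of 11 in Cyp11a1, beside 13.2% of all clusters. Neither replicate had a call in Sycp3, Piwil1, Sox9 or Cyp17a1. Neither Alb nor Ins2, genes of other tissues, had a cluster. The libraries thus hold RNA of germ cells and of somatic cells, and which cells gave the Kat7 reads was not tested.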

How the data were processed

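IGF2BP3 IP and SMInput libraries of 2 replicates were used. Per the submitters' processing notes, cutadapt, Bowtie2 and STAR were run with mm10. The authors called clusters with Clipper in each replicate separately and deposited the log2 fold change of IP over SMInput and the −log10 P value of their test. Listed −log10 values run from 0, given to clusters with little or no enrichment, to 400. Values were used as deposited. Read numbers and library totals were recovered as whole numbers that return both values (by Fisher's exact test if an observed or expected number was below 5, and by a Yates-corrected chi-square test if not). A single solution was found for 98.9% and 99.2% of the clusters listed between 0 and 400, and the others got no interval. Both the recovery and the blocked test were tested on simulated data. Regions were taken at the centre of the cluster from basic transcripts of GENCODE M21, in the order 3′UTR, CDS, 5′UTR, non-coding exon, intron. No cluster ran past a chromosome end. Python 3.11.15, numpy 2.4.6, scipy 1.17.1, pandas 2.3.3 and pysam 0.24.0 were used.

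The genes and lists were chosen with earlier results of these data known, so counts stand beside those over all genes and no test was run over a list. All 10 genes are named, with the called cluster of largest log2(fold change) in each replicate, every called pair that overlaps except 1 in Kat6a, or, without a call, the cluster of smallest P value. Of the complex genes, the 6 with the most overlapping calls are named, ties broken by the larger of the smaller log2(fold change). The 2 clusters nearest the threshold on each side are given. That Kat6a pair is not reported here. Alternatives were stricter and looser thresholds, adjusted P values, a minimum of 10 IP reads, other rules of assignment, region and overlap, and a fit with the replicate as a block. The series text names an IgG control and a larger number of replicates, and no IgG library was analysed here.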

Additional observations from a re-analysis of the deposited data

How the results depend on the processing

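With both thresholds at 3, the 10 genes had 8 and 12 called clusters in replicates 1 and 2, 3 genes called in both, 4 overlapping clusters, 75% and 66.7% of calls in 3′UTRs, and 3 of the 65 complex genes called in both. With the fold change threshold lowered to 1 (log2) there were 43 calls in replicate 1 and 24 overlapping clusters. Requiring 10 IP reads left 22 calls in replicate 2 and 21 complex genes, an adjusted p of at most 0.05 left 24 complex genes, and counting exonic centres left 27 calls in replicate 2. Requiring called clusters to overlap left 2 genes. A paired analysis with the replicate block (Mantel-Haenszel, pooled log2 of at least 2 and p of at most 0.01) gave 20 overlapping clusters in place of 12, of which 14 were in Kat7, 3 in Kat6b, 2 in Kat6a and 1 in Ep300. With 1 replicate left out, 8 genes had a call. Shares over all clusters, pairs or genes under these settings are not given, so no change is read as a trait of the 10 genes.

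Chosen after the data were seen, leaving out Kat7 gave 18 calls in replicate 1, 2 overlapping clusters and 22.2% and 27.8% of calls in 3′UTRs. Assigning clusters to the closest transcription start of either strand, also chosen then, gave 5 and 18 calls and 2 genes. All 10 and 11 Kat7 calls lay closer to the start of Tac4. The other alternatives, including joined neighbours, region order, all transcripts, any-base assignment and an overlap of 50% of both clusters, moved the counts by at most 1.5 times and kept the percentages inside their 95% Wilson intervals. In single genes, any-base assignment changed 0 of 20 counts beyond that and thresholds of 3 changed 15, among them Kat7, with 3 and 5 calls in place of 10 and 11.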

Other observations

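Crebbp was looked at further after its values were seen. Of 265 protein-coding genes with a 3′UTR and at least 30 CDS clusters in each replicate, 30 (11.3%) had no cluster in a 3′UTR in either replicate, and Crebbp was among them. No cause was tested.

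Over all called clusters with recovered reads, 22.9% in replicate 1 and 25.9% in replicate 2 rested on 1 SMInput read. For the 10 genes these were 6 of 28 and 15 of 47, and none of them was in Kat7.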
